A study of Mus musculus with 8 samples.

Results

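Cardiomyocytes at day 10 of differentiation (CM) were set against cardiac precursors at day 5.3 (CP) over the 13540 genes of the deposited expression table. The comparison covers 4 of the 8 libraries of the series, 2 for each stage, and asks which genes differ between the precursor and the heart muscle cell in culture. Both stages were made from embryonic stem cells of 129/Ola mice, and the labels name no genetic change. The cells grew as embryoid bodies without serum for 2 days, were dissociated, formed new aggregates under Activin A, BMP4 and VEGF, and were plated with FGF10, basic FGF and VEGF. The treatment was shared by both stages, and time in culture separates them. Poly(A) RNA of whole cultures was sequenced, and the labels name no sorting step. Embryonic stem cells (ESC, day 0) and mesoderm (MES, day 4) are given where an earlier level helps to place a value.

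Heart muscle cells contract through sarcomeres, in which myosin thick filaments slide along actin thin filaments anchored in the Z-disc. Each beat starts with calcium entering through surface channels and being released from the sarcoplasmic reticulum, and ends when pumps and exchangers remove it. As the heart matures, its muscle cells exchange fetal for adult protein isoforms, enlarge their mitochondria, oxidise more fatty acids, deposit and anchor to a matrix, and leave the cell cycle.

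The table holds 1 value per gene and stage in RPKM, reads scaled by gene length and by the reads of the library, which can be compared between genes because it is scaled by length. As there is no replicate column, no difference could be set against the spread between cultures, and every value is the authors' value for a stage, with no error. Differences are log2(CM RPKM + 1) minus log2(CP RPKM + 1), so that a gene close to 0 RPKM cannot give an extreme ratio, and a gene counts as higher or lower when it differs at least 2-fold on this scale. Of all genes, 11.3% were higher in CM and 12.8% were lower, with a median log2 difference of -0.15, and these shares are the background for the counts of genes in each list. Depth recovered from the low values came to about 64800000 reads in CP and 88500000 reads in CM. On a gene of 2 kb, 3 reads equal 0.0232 RPKM in CP and 0.0169 RPKM in CM, so that levels under about 0.1 RPKM rest on few reads.

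Marker genes of cell types were read first. Their lists were chosen with earlier results of these data known, so they do not test the labels. In CM 14 of 15 cardiomyocyte markers were higher (median log2 difference 3.47), and together they made up 1.02% of the summed RPKM of all genes in CP and 5.27% in CM. The exception was Smyd1, a muscle methyltransferase needed for myosin assembly, at 103 RPKM in CP against 104 in CM. Markers of other cell types remained measurable. Endothelial markers held 0.231% of the summed RPKM in CP and 0.109% in CM, with 8 of 20 lower and 3 higher. Blood markers held 0.133% and 0.0137%, with 14 of 17 lower and Cd34 higher. Endoderm markers held 0.0468% and 0.00264%, with 6 of 11 lower. Pluripotency markers held 0.0668% and 0.00525%, with 6 of 14 lower and 1 higher. Among the lower ones the factor Pou5f1 stood at 5.65 RPKM in CP against 0.0429 in CM. Of 6 endocardial markers 2 were lower, of 3 measured macrophage markers 1, and of 8 measured neural markers 3, with 0 higher in each. Only 3 skeletal muscle markers were measured, with 2 higher and 0 lower, and they held 0.000342% in CP and 0.00373% in CM. In RNA from whole cultures, a change in the share of cells of a type and a change in RNA per cell cannot be told apart. This holds for every higher and every lower value reported here.

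**Figure D1:**
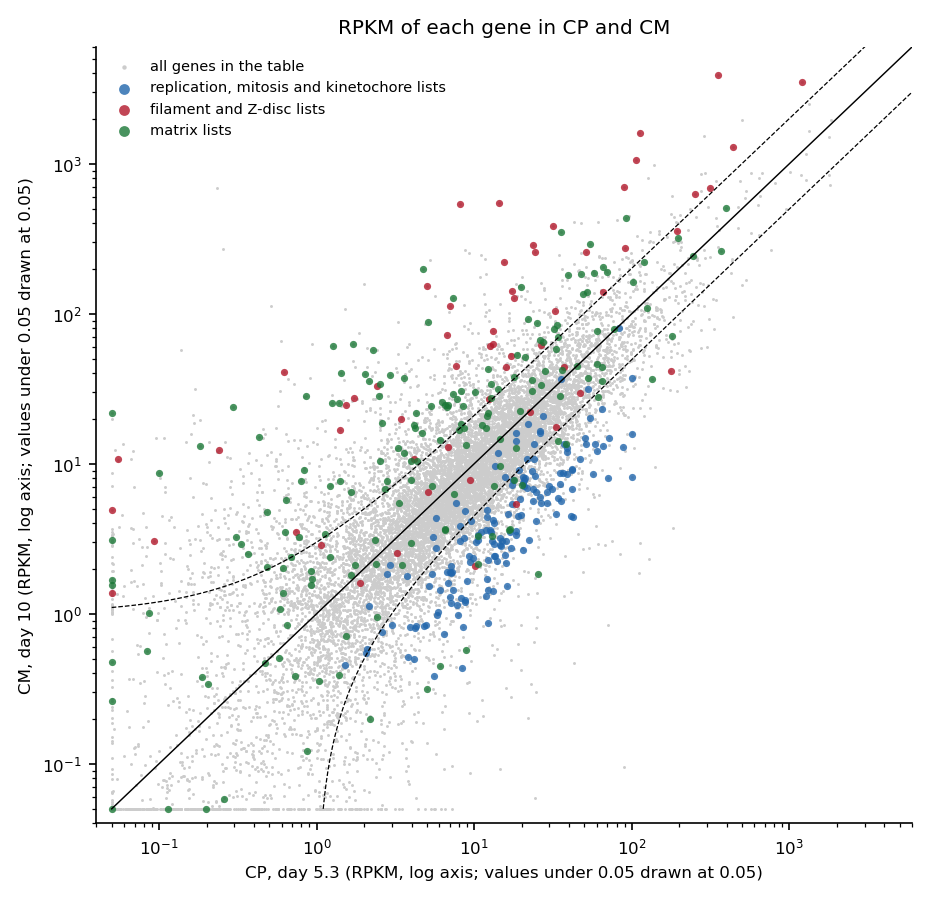
RPKM of every gene in CP (horizontal) and CM (vertical) on log axes, with equal levels on the solid line and the 2-fold limits of log2(RPKM + 1) dashed. Red points are filament and Z-disc genes (44 of 58 higher), green points are matrix genes (87 of 176 higher and 17 lower), and blue points are replication, mitosis and kinetochore genes (132 of 159 lower and 0 higher).

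Contractile genes were mostly higher in CM. The filament and Z-disc lists together held 58 measured genes, of which 44 were higher and 3 were lower, with a median log2 difference of 2.03. Their part of the summed RPKM was 0.181% in MES, 1.65% in CP and 7% in CM. Between MES and CP, 40 of these genes were already at least 2-fold higher, against 8.91% of all genes. The 2 steps share the CP value and are given side by side only.

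The 14 measured genes of the thick filament were all higher. Myosin heavy chains form the motor of the filament: Myh6, the chain of adult mouse heart, was at 112 RPKM in CP against 1614 in CM. Myh7, the chain of fetal ventricle in the mouse, stood at 106 RPKM in CP against 1053 in CM. These genes share 31.8% and 37.9% of their 32-base words with other genes, so their separate levels depend on how shared reads were counted. Mybpc3, which binds myosin and regulates its cycling, was at 31.5 RPKM in CP against 386 in CM. Mybphl, a related protein of the atria, went from 0.624 to 40.9 RPKM, the largest log2 difference of the list at 4.69.

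The thin filament was less uniform, with 12 of 18 higher and 3 lower. Cardiac actin Actc1 reached the highest level of all genes in CM, at 352 RPKM in CP against 3917 in CM. Lmod2 and Lmod3, leiomodins that lengthen thin filaments, had been nearly silent, with 0.0549 RPKM in CP against 10.7 in CM for Lmod2 and 0.241 RPKM in CP against 12.3 in CM for Lmod3. The lower genes were Tpm4, Tpm3 and Tnnt3. Tpm4, a tropomyosin of the cytoskeleton in non-muscle cells, stood at 176 RPKM in CP against 41.7 in CM, while Tpm1, the main tropomyosin of heart, was at 193 RPKM in CP against 356 in CM, under 2-fold.

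In the Z-disc list 26 of 32 genes were measured, of which 18 were higher and 0 were lower. Actn2, the alpha-actinin that crosslinks actin there, showed a log2 difference of 5.89. Ankrd1, a stretch-responsive protein bound to titin, stood at 14.3 RPKM in CP against 544 in CM. Csrp3, a LIM protein of the same place, was at 15.5 RPKM in CP against 222 in CM. Cryab, a small heat shock protein that protects desmin and titin, stood at 23.6 RPKM in CP against 285 in CM. Among proteins that build and clear the sarcomere, 16 of 21 chaperones and ubiquitin ligases were higher. Among them Hspb7, a small heat shock protein of heart, was at 11.05 RPKM in CP against 247 in CM. Trim63, the ligase MuRF1 that marks filament proteins for degradation, stood at 3.67 RPKM in CP against 46.8 in CM. Unc45b, a myosin folding chaperone, was the exception at 78.9 RPKM in CP against 33.4 in CM, and Smyd1, which also acts in myosin assembly, was under 2-fold, as given above.

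The promoters of these genes were read for elements known from muscle transcription. RefSeq promoters (250 bases before to 50 after the start, build GRCm38.p6) were found for 36 of the 44 higher filament and Z-disc genes. The CArG box, the element bound by serum response factor, occurred in 16.7% of them, against 1.38% of the 10218 promoters of genes in the table and 1.59% of all 27025 RefSeq promoters. The MEF2 motif occurred in 13.9%, against 1.61% and 3.29%. The MCAT element bound by TEAD factors (CATTCC) occurred in 33.3%, against 11.9% and 14.7%. Elements were counted on both strands, and a CArG box and a MEF2 motif are both rich in A and T and can overlap. The upstream stretches of 4 members are shown because they carry these elements close to the start, with the elements in capitals. A match describes the sequence and does not show binding. They are Actc1 (chr2:114052876-114052955, minus strand) and Acta1 (chr8:123894776-123894855, minus strand), Myl3 (chr9:110763488-110763617, plus strand) and Mybpc3 (chr2:91118024-91118103, plus strand), in the orientation of the gene.
Actc1: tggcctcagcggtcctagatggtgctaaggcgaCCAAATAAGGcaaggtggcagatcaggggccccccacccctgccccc
Acta1: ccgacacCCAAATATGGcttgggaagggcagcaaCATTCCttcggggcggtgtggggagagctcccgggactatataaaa
Myl3: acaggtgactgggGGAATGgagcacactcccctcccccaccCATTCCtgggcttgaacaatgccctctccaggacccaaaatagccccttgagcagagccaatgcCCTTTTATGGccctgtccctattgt
Mybpc3: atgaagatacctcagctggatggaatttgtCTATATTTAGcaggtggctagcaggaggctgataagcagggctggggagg
In Actc1 the capitals mark a CArG box 38 bases before the start. In Acta1 they mark a CArG box 64 bases and an MCAT element 41 bases before it, in Myl3 2 MCAT elements and a CArG box 76 bases before it, and in Mybpc3 a MEF2 motif 81 bases before it. Of these genes Acta1, the skeletal alpha-actin that fetal heart also makes, was at 24.4 RPKM in CP against 259 in CM. Myl3, the ventricular essential light chain, stood at 88.9 RPKM in CP against 702 in CM.

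Genes for calcium cycling were higher in 22 of 37 cases and lower in 2, with a median log2 difference of 1.76. Entry channels, release channels and removal pumps each had higher members. Cacna1h, a T-type calcium channel typical of fetal heart, was at 1.84 RPKM in CP against 73.9 in CM. Cacna1c, the L-type channel that triggers release, stood at 5.21 RPKM in CP against 21.4 in CM. Ryr2, the release channel of the reticulum, was at 11.02 RPKM in CP against 53.9 in CM. Trdn, the triadin that anchors the calcium store to it, went from 0.0525 to 12.4 RPKM. Casq2, the cardiac calsequestrin that buffers the store, stood at 0.0318 RPKM in CP against 3.34 in CM. Casq1, the form of skeletal muscle, was at 1.95 RPKM in CP against 25.5 in CM. For removal, Atp2a2, the pump SERCA2 that refills the store, stood at 95.7 RPKM in CP against 446 in CM. Slc8a1, the sodium-calcium exchanger, was at 9.09 RPKM in CP against 79.6 in CM. Pln, the brake on SERCA2, had a log2 difference of 5.05, in a gene that shares 62% of its words with others. Cav3, the caveolin of muscle membranes, went from 0.159 to 15.8 RPKM. The lower genes were Atp2a3 and Bin1. Atp2a3, a SERCA form of non-muscle cells, stood at 12.9 RPKM in CP against 3.105 in CM. Bin1, which shapes membrane tubules, was at 27.95 RPKM in CP against 10.7 in CM.

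Of 30 listed genes for channels and pumps that set the membrane potential, 23 were measured, with 15 higher and 2 lower. Their median was 0.659 RPKM in CP and 6.91 in CM. A gene this low in CP can be in the table only through CM, which favours higher members in this count. Both subunits of the slow delayed rectifier were among the higher ones. Kcnq1, its pore, stood at 0.555 RPKM in CP against 9.58 in CM. Kcne1, its accessory subunit, was at 0.0587 RPKM in CP against 13.5 in CM. Atp1b1, a beta subunit of the sodium pump, stood at 11.8 RPKM in CP against 185 in CM. Fxyd1, phospholemman, a regulator of that pump, was at 3.29 RPKM in CP against 54.2 in CM. Kcnj2, the main inward rectifier of adult ventricle, stood at 0.2297 RPKM in CP against 1.33 in CM, a log2 difference of 0.92. It counts as under 2-fold only because 1 RPKM is added to both values. The lower genes were Hcn4 and Kcnk1. Hcn4, the pacemaker channel of early heart muscle and sinus node, was at 33.6 RPKM in CP against 12.5 in CM. Kcnk1, a leak channel for potassium, stood at 3.01 RPKM in CP against 0.326 in CM.

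Cell contacts differed less. Of 41 genes of the intercalated disc and costamere, 15 were higher and 2 lower, with a median log2 difference of 0.73. Dsp, the desmoplakin of desmosomes, was at 18.7 RPKM in CP against 132 in CM. Cdh2, the cadherin of cardiac junctions, stood at 17.9 RPKM in CP against 62.1 in CM. Ctnna3, the alpha-catenin of mature intercalated discs, was at 0.1901 RPKM in CP against 7.44 in CM, while the common form Ctnna1 stood at 120.0 RPKM in CP against 146 in CM. Of the dystrophin complex, which links the cytoskeleton to the matrix, Sgca (alpha-sarcoglycan) was at 2.18 RPKM in CP against 23.7 in CM and Sspn (sarcospan) at 0.454 RPKM in CP against 17.2 in CM. The lower genes were Tln2 and Ctnnb1. Tln2, a talin, stood at 12.01 RPKM in CP against 3.83 in CM. Ctnnb1, beta-catenin, which lay at the 2-fold limit, was at 279 RPKM in CP against 139 in CM. Gja1, the main gap junction protein of ventricle, stood at 37.1 RPKM in CP against 22.1 in CM, under 2-fold.

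Of 24 listed hormones, their receptors and secreted factors, 20 were measured and 14 of these were higher. Beyond the natriuretic peptides, Adm, the vasodilator adrenomedullin, was at 2.23 RPKM in CP against 38.7 in CM. Ace, the angiotensin-converting enzyme, stood at 0.102 RPKM in CP against 8.01 in CM. The lower members were both natriuretic peptide receptors: Npr1, which makes cyclic GMP, was at 14.9 RPKM in CP against 2.08 in CM. Npr3, which clears the peptides and also marks endocardium, stood at 5.13 RPKM in CP against 0.489 in CM. Receptors for the autonomic nervous system were low in both stages and higher in CM. Adrb1, the beta-1 adrenoceptor, was at 0.209 RPKM in CP against 3.34 in CM. Chrm2, the muscarinic receptor of heart, stood at 0.0661 RPKM in CP against 3.72 in CM.

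Paired isoforms were set side by side, as each pair compares genes with the same or a related task. For 24 of 26 pairs both genes were measured, and the share of the form listed second, usually that of muscle or adult heart, was taken of the summed RPKM of the pair. This share was larger in CM in 20 pairs, by more than 10 percentage points in 7, and smaller by more than 10 points in 3. In 14 pairs it lay within 10 points. As the second form is not the adult one in every pair, these counts do not measure maturation.

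**Figure D2:**
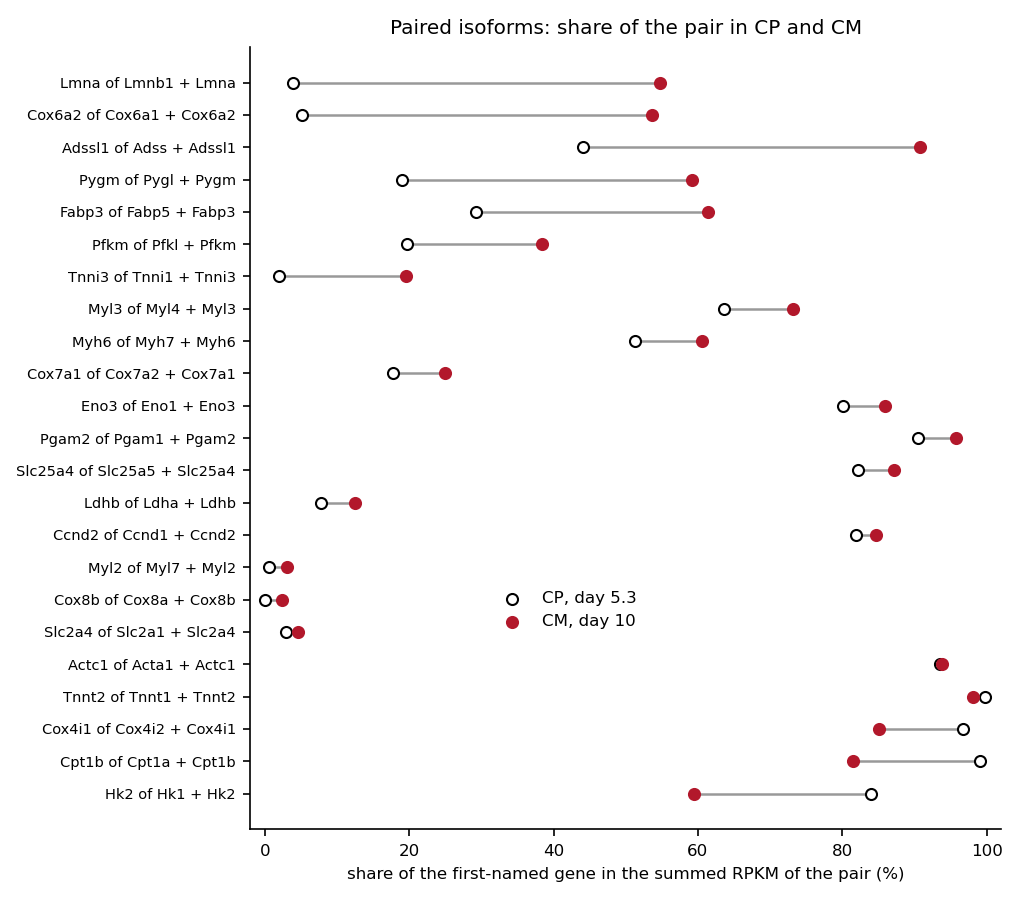
Share of the summed RPKM of gene pairs that belongs to the first-named gene of each label, in CP (open) and CM (filled), in percent. Lmna, Cox6a2, Adssl1, Pygm, Fabp3, Pfkm and Tnni3 lie more than 10 points higher in CM, while Hk2, Cpt1b and Cox4i1 lie more than 10 points lower.

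Within the sarcomere the share of the second form in CM ranged from 3.12% for Myl2 to 98.1% for Tnnt2. Tnni3, the adult cardiac troponin I, held 1.97% of its pair in CP and 19.5% in CM, with 5.03 RPKM in CP against 152 in CM. Tnni1, the fetal form, was itself higher, at 250.4 RPKM in CP against 629 in CM. Myl2, the ventricular regulatory light chain, held 0.584% of its pair in CP and 3.12% in CM, with 7.03 RPKM in CP against 113 in CM. Myl7, the atrial form, was at 1196 RPKM in CP against 3502 in CM. Myh6 held 51.3% of its pair in CP and 60.5% in CM. Actc1 held 93.5% and 93.8% of the cardiac and skeletal alpha-actin. Metabolic pairs ranged widely. Among those within 10 points, Slc2a4, the insulin-regulated glucose transporter, held 2.92% and 4.60%, Cox7a1 held 17.8% and 25%, and Pgam2 held 90.5% and 95.7%. Cox6a2, the subunit of cytochrome oxidase found in heart and skeletal muscle, held 5.17% of its pair in CP and 53.6% in CM, with 5.24 RPKM in CP against 229 in CM. Pygm, the muscle glycogen phosphorylase, went from 19% to 59.1% of its pair with the liver form Pygl. Adssl1, the muscle adenylosuccinate synthase, went from 44.1% to 90.7%. Fabp3, the fatty acid binding protein of heart, went from 29.2% to 61.4%, yet at low levels, with 0.466 RPKM in CP against 4.52 in CM, and it shares 49.4% of its words with other genes. In the nuclear envelope Lmna, the A-type lamin of differentiated cells, went from 3.92% to 54.8% of its pair with Lmnb1, with 6.42 RPKM in CP against 38.7 in CM for Lmna and 157 RPKM in CP against 31.9 in CM for Lmnb1. Lmnb1 also stands in the list on chromatin of dividing cells, so the lamin pair is not separate from the cell cycle lists. Hexokinase differed the other way. Hk2, the hexokinase of insulin-sensitive muscle, held 83.9% of the pair in CP and 59.5% in CM, and Hk1, the broadly expressed form, stood at 8.64 RPKM in CP against 82.5 in CM.

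Genes of metabolism were more often higher than lower in CM, with a smaller median than the contractile genes. Over all 485 measured genes of the metabolism lists, 154 were higher and 32 lower, with a median log2 difference of 0.55. These lists also hold genes for nucleotide and sterol synthesis, antioxidant defence and lysosomes, which are not genes of energy supply. The 87 nuclear-encoded genes of the respiratory chain and ATP synthase counted 39 higher and 0 lower, 81 lay above 0, and their median log2 difference was 0.89. Their part of the summed RPKM was 1.97% in MES, 1.81% in CP and 3.61% in CM, and 3 of them were at least 2-fold higher in CP than in MES.

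Each complex had higher members. For complex I, which oxidises NADH, 14 of 35 genes were higher, among them Ndufs7, a subunit of the electron path, at 30.03 RPKM in CP against 101.5 in CM. Ndufa6 was at 129.9 RPKM in CP against 352 in CM. For complexes II and III and cytochrome c, 9 of 13 were higher, with the largest median of the chain at 1.30. Uqcr10, a small subunit of complex III, stood at 67.2 RPKM in CP against 234 in CM. For complex IV, 9 of 22 were higher, and the 3 largest differences were the muscle or alternative subunits Cox6a2, Cox8b and Cox4i2. Cox8b went from 0.0956 to 14.8 RPKM, and Cox4i2, the form made at low oxygen, was at 11.6 RPKM in CP against 134 in CM. For ATP synthase, 7 of 17 were higher, with Atp5a1, its alpha subunit, at 274 RPKM in CP against 654 in CM. The genes encoded by mitochondrial DNA did not pass the limit: of 7 measured, 0 were higher or lower, and mt-Co1, a core subunit of complex IV, stood at 1337 RPKM in CP against 2496 in CM with a log2 difference of 0.90. The levels of mt-Co1 and mt-Nd4 are uncertain, as both share over 50% of their words with other genes.

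The citrate cycle counted 19 of 36 higher and 2 lower. Idh3a, a subunit of the NAD-linked isocitrate dehydrogenase, was at 21.3 RPKM in CP against 77.8 in CM. Cs, citrate synthase, stood at 52.05 RPKM in CP against 157 in CM. The kinases that restrain pyruvate dehydrogenase led the list. Pdk4 was at 0.572 RPKM in CP against 24.4 in CM. Pdk2 stood at 3.95 RPKM in CP against 42.6 in CM. The lower genes were Idh1 and Me2. Idh1, the cytosolic isocitrate dehydrogenase, was at 58.1 RPKM in CP against 19.96 in CM. Me2, a malic enzyme, stood at 18.98 RPKM in CP against 8.21 in CM.

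Fatty acid uptake and oxidation counted 20 of 41 higher and 0 lower. Lpl, which frees fatty acids from circulating lipid, was at 4.26 RPKM in CP against 38.7 in CM. Pnpla2, the lipase of stored triglyceride, stood at 9.69 RPKM in CP against 74.2 in CM. Cpt1a, the carnitine transferase of liver and fetal heart, went from 0.164 to 21.2 RPKM. Cpt1b, the muscle form, was at 16.7 RPKM in CP against 93.1 in CM, and shares 93.7% of its words with other genes. Within the oxidation spiral, Acadl, a long-chain dehydrogenase, stood at 7.15 RPKM in CP against 42.6 in CM. Acaa2, the last thiolase step, was at 39.9 RPKM in CP against 148 in CM. Among genes for ketone use, Oxct1, the enzyme that activates ketone bodies, stood at 5.24 RPKM in CP against 37.9 in CM.

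Genes for glucose use were also higher. Of 30 genes for glucose uptake and glycolysis, 16 were higher and 1 lower, with a median log2 difference of 1.15. Of 19 glycogen genes 12 were higher and 0 lower, with a median of 1.84. Gyg, the glycogenin that primes the polymer, was at 80.5 RPKM in CP against 423 in CM. Gys1, the muscle synthase, stood at 19.1 RPKM in CP against 152 in CM. Gbe1, the branching enzyme, was at 3.23 RPKM in CP against 40.9 in CM. Breakdown genes were higher too: Pygm, the phosphorylase of muscle, stood at 3.300 RPKM in CP against 87.7 in CM. Pygl, the form of liver, was at 14.1 RPKM in CP against 60.8 in CM. In glycolysis, Aldoc, an aldolase of brain and embryo, stood at 11.6 RPKM in CP against 116 in CM. Pfkp, a phosphofructokinase, was at 17.1 RPKM in CP against 142 in CM. Aldoa, the aldolase of muscle, stood at 273 RPKM in CP against 859 in CM. Ldha, which makes lactate, was at 303 RPKM in CP against 513 in CM, under 2-fold. Pfkfb4, a bifunctional regulator of glycolysis, was the lower member at 3.89 RPKM in CP against 1.34 in CM.

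Of 19 genes for oxygen and phosphate stores and adenine nucleotides 7 were higher and 0 lower. Mb, the oxygen store myoglobin, had a log2 difference of 6.22. Ckb, the brain-type creatine kinase of fetal heart, stood at 45.8 RPKM in CP against 192 in CM. Slc25a4, the ADP/ATP carrier of heart, was at 203 RPKM in CP against 455 in CM. Among 33 regulators of mitochondrial metabolism 10 were higher and 1 lower. The coactivators that drive mitochondrial growth were among the higher ones, with Ppargc1a at 0.696 RPKM in CP against 7.398 in CM. Ppargc1b stood at 0.658 RPKM in CP against 14.3 in CM. Sirt3, a deacetylase of mitochondria, was at 6.45 RPKM in CP against 38.5 in CM. By contrast Polg, the polymerase of mitochondrial DNA, was lower, at 39.6 RPKM in CP against 11.1 in CM, and Tfam, which packages that DNA, stood at 13.1 RPKM in CP against 8.005 in CM, under 2-fold.

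General machinery of the organelle was mostly under 2-fold. Of 39 genes for mitochondrial shape, import and cristae, 4 were higher and 1 lower, with a median log2 difference of 0.08. Chchd10, a protein of the intermembrane space abundant in muscle, was higher, at 8.698 RPKM in CP against 266 in CM, and Mfn2, which fuses mitochondria and tethers them to the reticulum, was at 11.2 RPKM in CP against 43.6 in CM. Tomm20, an import receptor, was the lower member, at 104 RPKM in CP against 37.7 in CM.

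Biosynthetic genes of growing cells were more often lower than higher. Of 42 genes for nucleotide and one-carbon synthesis, 16 were lower and 1 higher (median log2 difference -0.78). Gldc, the glycine decarboxylase of one-carbon supply, stood at 11.3 RPKM in CP against 0.208 in CM. Tyms, which makes thymidylate, was at 8.38 RPKM in CP against 0.434 in CM. Rrm2, the ribonucleotide reductase subunit of S phase, stood at 41.4 RPKM in CP against 4.49 in CM. Prps2, which makes the ribose precursor of nucleotides, was the higher member at 8.46 RPKM in CP against 35.3 in CM. Ribosome biogenesis showed 21 of 42 genes lower and 0 higher, with a median of -0.97, and it had already been lower in CP than in MES, with 23 of 42 lower against 3.91% of all genes. Ncl, nucleolin, was at 326 RPKM in CP against 126 in CM, after 1180.0 RPKM at the stem cell stage and 672 RPKM in mesoderm. Sterol and fatty acid synthesis was near the share of all genes for lower members, with 4 of 33 lower and 1 higher. Antioxidant genes, with 5 of 33 higher (15.2%) and 6 lower (18.2%), were close to the shares of all genes. Gpx3, a secreted glutathione peroxidase, stood at 127 RPKM in CP against 803 in CM. Txnrd1, the cytosolic thioredoxin reductase, was at 67.7 RPKM in CP against 15.3 in CM. Lysosomal and autophagy genes counted 13 of 44 higher and 0 lower, led by Ctsa, cathepsin A, at 21.02 RPKM in CP against 125 in CM.

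**Figure D3:**
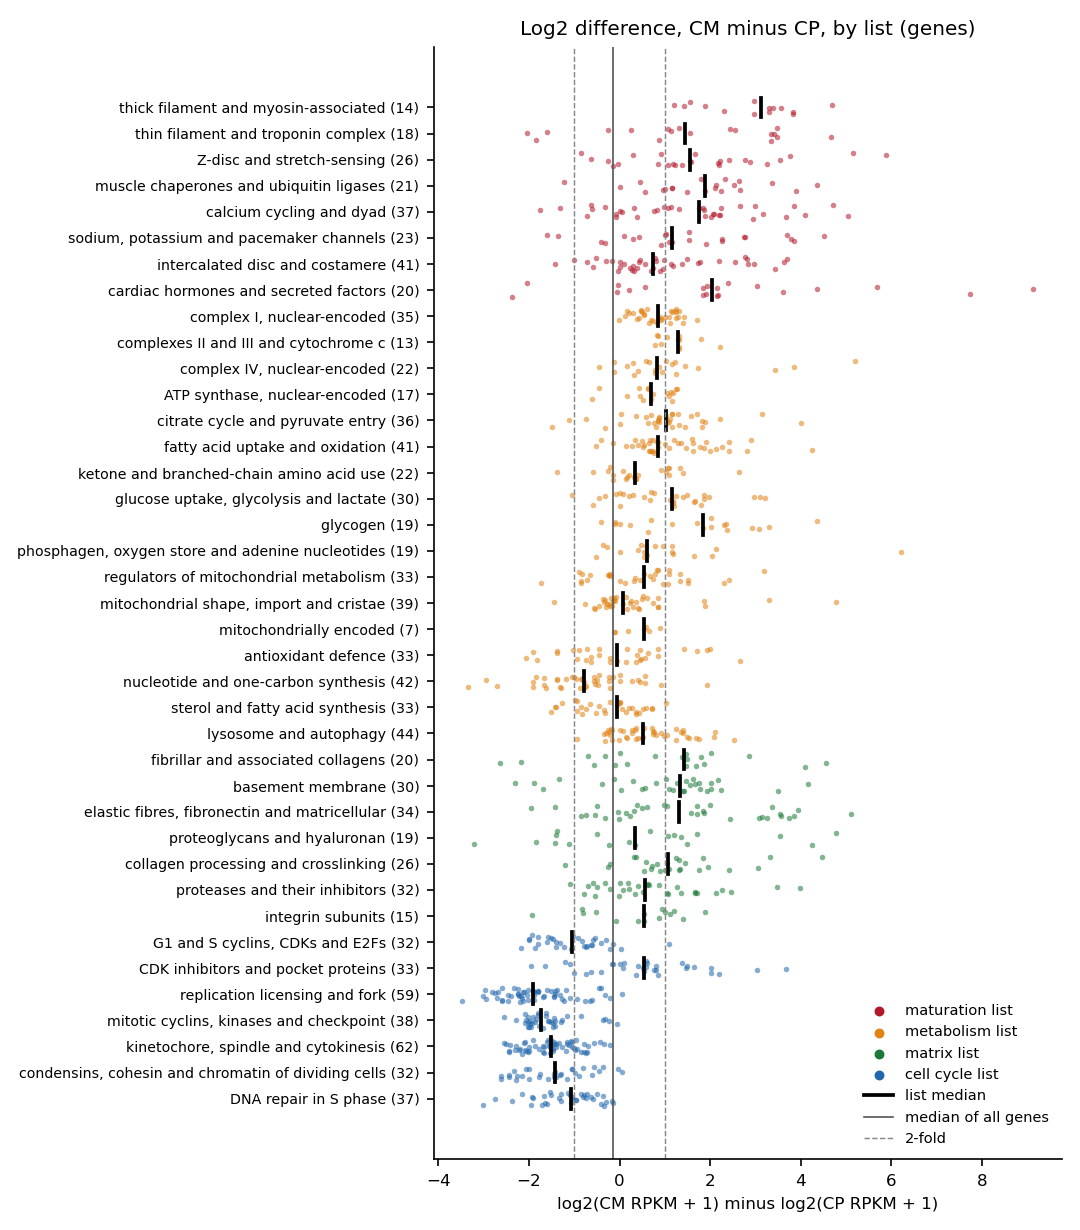
Log2 difference of RPKM + 1, CM minus CP, for each measured gene (points) of the 39 lists on maturation, metabolism, matrix and cell cycle, with list medians (black bars), the median of all genes at -0.15 (grey line) and the 2-fold limits (dashed). Thick filament genes have the highest median, at 3.13, and replication genes the lowest, at -1.90.

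Matrix genes were more often higher than lower. Of 176 measured matrix genes 87 (49.4%) were higher and 17 (9.66%) lower, the latter below the 12.8% of all genes, with a median log2 difference of 0.99. The heart matrix combines fibrillar collagens that carry load, a basement membrane around each muscle cell, elastic fibres, and hyaluronan and proteoglycans that fill the cushions of the early heart tube.

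Among fibrillar and associated collagens 11 of 20 were higher and 2 lower. Col1a1, the main collagen of scar and tendon, stood at 19.9 RPKM in CP against 151 in CM. Col3a1, its partner in soft tissue, was at 1.702 RPKM in CP against 62.5 in CM. Col12a1, which decorates their fibrils, stood at 1.42 RPKM in CP against 40.2 in CM. The lower ones were Col23a1 and Emid2. Col23a1, a transmembrane collagen, was at 8.81 RPKM in CP against 0.575 in CM. Emid2, also called Col26a1, stood at 4.98 RPKM in CP against 0.315 in CM. Of 26 genes for collagen processing 15 were higher and 1 lower. Lox, which crosslinks collagen and elastin, went from 0.0392 to 21.8 RPKM, and Loxl2, a related oxidase, was at 53.9 RPKM in CP against 293 in CM. P4ha2, which hydroxylates collagen, stood at 3.59 RPKM in CP against 37.2 in CM. Pcolce, which aids removal of its propeptide, was at 2.53 RPKM in CP against 34.2 in CM. Loxl1, the oxidase of elastic fibres, was lower, at 33.8 RPKM in CP against 14.1 in CM. Serpinh1, the collagen chaperone, was abundant in both stages, at 394 RPKM in CP against 506 in CM.

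The basement membrane list had the largest share of higher genes in the matrix, 19 of 30, with 4 lower. Its network collagens Col4a1 and Col4a2 stood at 65.6 RPKM in CP against 205 in CM and at 39.5 RPKM in CP against 182 in CM. Nid1, a linker of laminin and collagen IV, was at 22.04 RPKM in CP against 92.5 in CM. Hspg2, perlecan, stood at 69.9 RPKM in CP against 189 in CM. Sparc, which assists collagen IV assembly, was at 92.2 RPKM in CP against 436 in CM. Among laminin alpha chains Lama1, that of the early embryo, was lower, at 12.9 RPKM in CP against 3.297 in CM. Lama2, the chain of adult muscle, stood at 0.934 RPKM in CP against 1.71 in CM, under 2-fold. Lama3, Lama4 and Lama5 were higher. Lama3 was at 0.487 RPKM in CP against 2.04 in CM. Lama4 stood at 8.24 RPKM in CP against 30.4 in CM. Lama5 was at 31.9 RPKM in CP against 78.9 in CM. Col18a1, the source of endostatin, was lower, at 179 RPKM in CP against 70.7 in CM. Smoc1, a calcium-binding matrix protein, and Frem1, of the Fraser complex, were lower too. Smoc1 stood at 10.6 RPKM in CP against 2.13 in CM. Frem1 was at 6.099 RPKM in CP against 0.446 in CM.

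Elastic and matricellular genes counted 18 of 34 higher and 2 lower. Ctgf and Cyr61, secreted CCN proteins known as targets of mechanical YAP signalling, stood at 4.74 RPKM in CP against 199 in CM and at 35.5 RPKM in CP against 349.8 in CM. Eln, elastin itself, was at 2.14 RPKM in CP against 35.4 in CM. Thbs1, thrombospondin, stood at 2.02 RPKM in CP against 39.4 in CM. Microfibrils are the scaffold on which elastin is laid. Of the fibrillins, both under 2-fold, Fbn1 was at 64.3 RPKM in CP against 43.8 in CM. Fbn2 stood at 64.6 RPKM in CP against 35.6 in CM. The lower genes were Mfap4, a microfibril protein, and Thbs3, a thrombospondin. Mfap4 was at 10.6 RPKM in CP against 3.303 in CM. Thbs3 stood at 16.7 RPKM in CP against 3.59 in CM. Fn1, fibronectin, was at 246 RPKM in CP against 243 in CM, after 715 RPKM in mesoderm.

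Proteoglycans and hyaluronan genes split, with 8 of 19 higher and 6 lower. Bgn, biglycan, a small proteoglycan bound to collagen, stood at 1.27 RPKM in CP against 60.9 in CM. Cspg4, the NG2 proteoglycan, was at 0.293 RPKM in CP against 23.8 in CM. Has2, the hyaluronan synthase of the cardiac cushions, was lower, at 25.4 RPKM in CP against 1.85 in CM, and so was its link protein Hapln1, at 20.2 RPKM in CP against 7.16 in CM. Vcan, versican, which binds hyaluronan, stood at 101.7 RPKM in CP against 163 in CM, under 2-fold. Podxl, a sialomucin of vessels, was at 134 RPKM in CP against 36.6 in CM. Among proteases and inhibitors 12 of 32 were higher and 1 lower, with Timp3, an inhibitor held in the matrix, at 2.58 RPKM in CP against 18.8 in CM. Mmp14, a membrane-bound collagenase, was the lower member, at 60.6 RPKM in CP against 27.7 in CM. Of 15 integrin subunits 4 were higher and 1 lower.

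**Figure D4:**
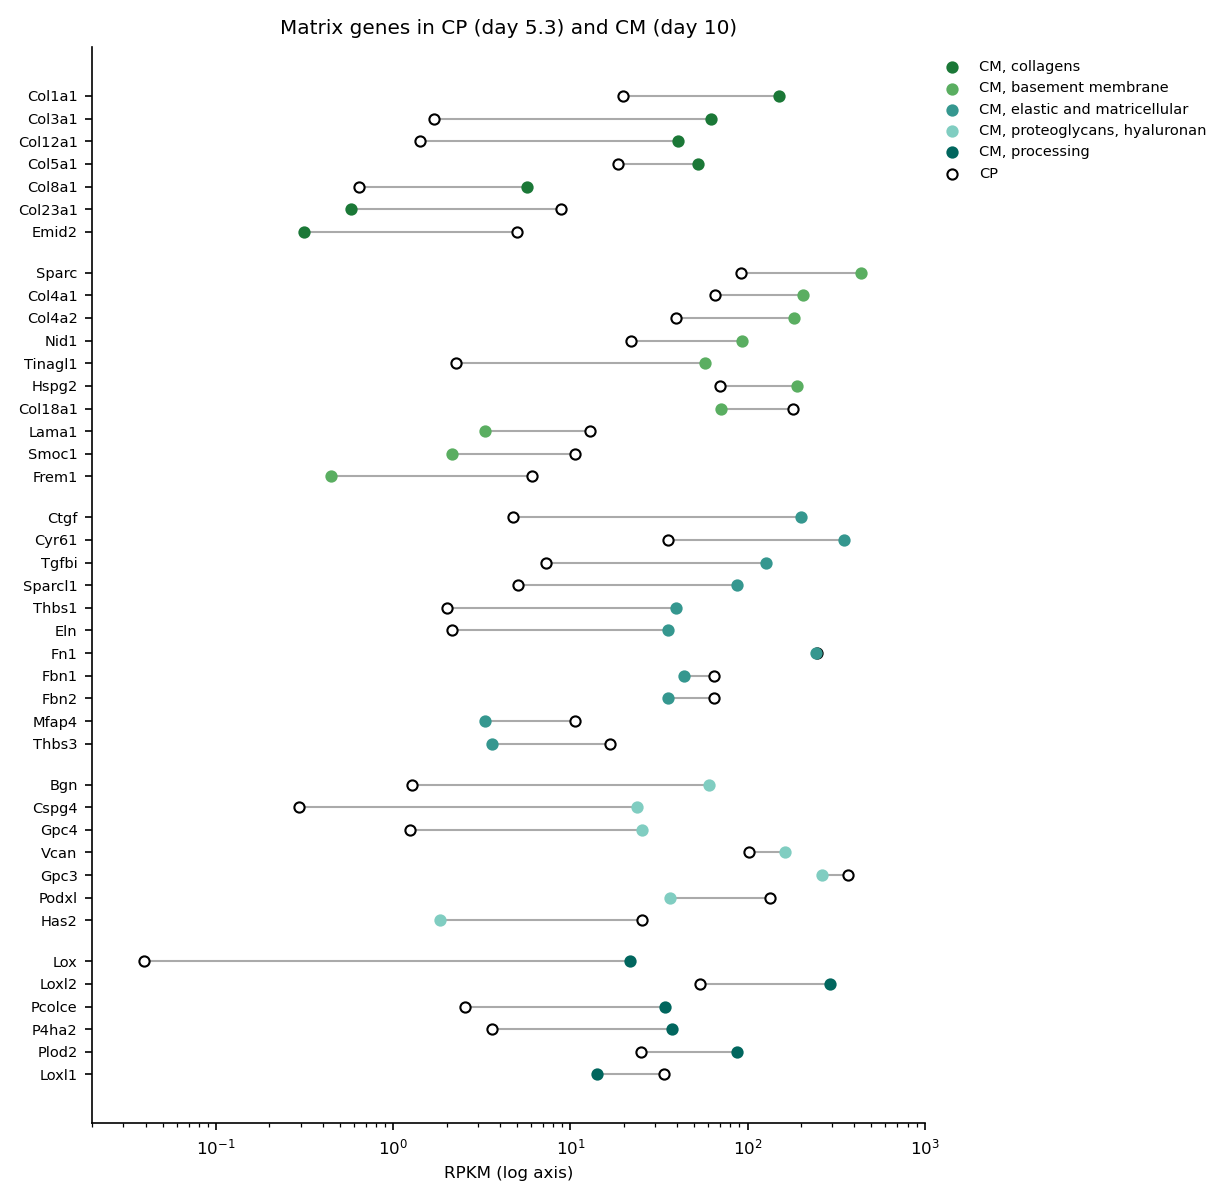
RPKM of matrix genes in CP (open) and CM (filled) on a log axis, grouped by role. Lox, Bgn, Ctgf and Col3a1 lie far higher in CM, Fn1 is level at 246 and 243 RPKM, and Has2, Col23a1, Emid2 and Frem1 lie lower.

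Fibroblasts, smooth muscle and endothelium also make these genes, and their markers were counted beside them. Fibroblast markers held 0.0411% of the summed RPKM in CP and 0.103% in CM, with 5 of 9 higher and 2 lower. The higher ones were the matrix genes Col1a1, Col1a2, Col3a1, Postn and Lum, of which Lum was listed at 0 in CP and at 1.56 RPKM in CM. The lower ones were Pdgfra and Tcf21. Pdgfra, the PDGF receptor alpha, stood at 54.4 RPKM in CP against 10.3 in CM. Tcf21, a transcription factor of cardiac fibroblast precursors, was at 10.1 RPKM in CP against 2.72 in CM. Smooth muscle markers held 0.319% and 1.08%, with 6 of 12 higher and 1 lower. Acta2 and Tagln, actin and an actin-binding protein that embryonic heart muscle also expresses, had the highest levels. Acta2 stood at 498 RPKM in CP against 1944 in CM. Tagln was at 43.2 RPKM in CP against 408 in CM. Myh11, the myosin of smooth muscle, stood at 2.95 RPKM in CP against 3.08 in CM. Epicardial markers held 0.0242% in CP and 0.0722% in CM, although only 1 of 10 was higher and 4 were lower, and Msln was listed at 0 in CP. Endothelial markers are given above. The part of these cells in the matrix values was not tested.

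Cell cycle genes were mostly lower in CM. Of 292 measured genes 197 were lower and 10 higher (median log2 difference -1.44). The lists on replication, mitosis and kinetochore together held 1.99% of the summed RPKM in MES (day 4), 1.43% in CP (day 5.3) and 0.395% in CM (day 10). The step from CP to CM also spans the longer time, so these shares do not compare rates. Of their 159 genes 132 were lower and 0 higher, and 158 lay below 0. In CM the median level of these genes was still 3.82 RPKM, against 14.9 RPKM in CP.

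Replication licensing and fork genes had the lowest median, -1.90, with 50 of 59 lower. Mcm5, part of the helicase ring loaded at origins, was at 99.6 RPKM in CP against 8.100 in CM, a log2 difference of -3.47. Mcm6 of the same ring stood at 70.1 RPKM in CP against 8.08 in CM. Mcm2 was at 100.4 RPKM in CP against 15.8 in CM. Gins1, which activates that helicase, stood at 12.2 RPKM in CP against 0.872 in CM. Uhrf1, which copies DNA methylation at the fork, was at 42.6 RPKM in CP against 4.42 in CM. Members under 2-fold included Rfc1, of the clamp loader, at 26.3 RPKM in CP against 16.4 in CM. Pold2, of polymerase delta, stood at 35.3 RPKM in CP against 36.8 in CM. Of 37 genes for repair in S phase 21 were lower, among them Chek1, the checkpoint kinase, at 6.296 RPKM in CP against 0.628 in CM.

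Mitotic cyclins, kinases and checkpoint genes were lower in 33 of 38 cases, and kinetochore, spindle and cytokinesis genes in 49 of 62. Plk1, the polo kinase of mitotic entry, was at 46.7 RPKM in CP against 10.7 in CM. Cdc20, which activates the anaphase-promoting complex, stood at 58.6 RPKM in CP against 13.6 in CM. Ccnb2, a mitotic cyclin, was at 51.1 RPKM in CP against 13.5 in CM. Kif11, the motor that separates spindle poles, stood at 22.4 RPKM in CP against 3.096 in CM. Tpx2, which nucleates spindle microtubules, was at 41.6 RPKM in CP against 6.795 in CM. Anapc5, a subunit of the anaphase-promoting complex, stood at 82.6 RPKM in CP against 79.7 in CM, under 2-fold. In cytokinesis Racgap1, of the central spindle, was at 37.3 RPKM in CP against 13.5 in CM. Of 32 genes for condensins, cohesin and chromatin of dividing cells 23 were lower. Mki67, the proliferation marker Ki-67, stood at 55.3 RPKM in CP against 10.6 in CM. Hmga2, a chromatin protein of embryonic growth, was at 193 RPKM in CP against 30.5 in CM.

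Promoters of the lower genes were read for elements known from the cell cycle. Of the 82 lower mitosis and kinetochore genes, 70 had a RefSeq promoter, and 62.9% of these held the CHR element (TTTGAA, on either strand), through which mitotic genes are repressed outside the cell cycle, against 11.5% of promoters of genes in the table. The CCAAT box (CCAAT), bound by NF-Y, was present in 68.6%, against 38.7%, and it was also present in 61% of promoters of lower replication genes and in 54.1% of those of higher respiratory, citrate cycle and fatty acid genes. Of 41 promoters of lower replication genes, 17.1% held the CHR element and 58.5% held an E2F core (TTCCCGC or else TTGGCGC or else TTCGCGC or else TTGCCGC), against 17.4% of promoters in the table, and in the mitotic group the E2F core was present in 20%. Over all 27025 RefSeq promoters the CHR element occurred in 18.2% and the E2F core in 9.72%. The stretches before the start of 2 mitotic genes, Cdc20 (chr4:118437344-118437423, minus strand) and Kif11 (chr19:37376302-37376381, plus strand), and of 2 replication genes, Mcm6 (chr1:128359706-128359825, minus strand) and Mcm5 (chr8:75109339-75109448, plus strand), show the layouts of both groups, with all these elements in capitals.
Cdc20: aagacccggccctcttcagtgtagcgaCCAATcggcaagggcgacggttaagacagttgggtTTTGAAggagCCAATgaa
Kif11: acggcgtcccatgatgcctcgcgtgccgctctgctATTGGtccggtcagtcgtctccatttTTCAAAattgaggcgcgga
Mcm6: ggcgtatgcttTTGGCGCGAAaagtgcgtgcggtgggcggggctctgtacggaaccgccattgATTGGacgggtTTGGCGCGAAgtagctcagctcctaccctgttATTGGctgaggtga
Mcm5: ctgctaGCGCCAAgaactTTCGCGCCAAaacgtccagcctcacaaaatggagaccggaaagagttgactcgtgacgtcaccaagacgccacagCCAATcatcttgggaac
In Cdc20 the CHR element lies 13 bases before the start, between CCAAT boxes, and in Kif11 it lies 14 bases before the start on the opposite strand. Overlapping E2F cores on both strands run together in capitals in Mcm6, where they end 100 and 37 bases before the start, and in Mcm5, where they end 143 bases before it and a separate core ends 158 bases before it. These are matches of letters, and no binding was measured here.

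The genes that start and stop the cycle were less uniform. Of 32 cyclins, CDKs and E2Fs of G1 and S phase 17 were lower and 1 higher (median log2 difference -1.05). Cdk1, the kinase of mitosis, stood at 39.5 RPKM in CP against 9.05 in CM. Cdk4, the partner of D-type cyclins, was at 195 RPKM in CP against 63.7 in CM. Skp2, which degrades the inhibitor p27, stood at 11.6 RPKM in CP against 1.81 in CM. Ccnd3 was the higher member: this D-type cyclin of differentiating muscle was at 84.7 RPKM in CP against 181 in CM, in contrast to the other D-type cyclins, both under 2-fold. Ccnd1 stood at 24.3 RPKM in CP against 13.6 in CM. Ccnd2 was at 110.1 RPKM in CP against 75.4 in CM. Among 33 CDK inhibitors, pocket proteins and related brakes 9 were higher and 5 lower. Cdkn1a, the inhibitor p21, stood at 18.3 RPKM in CP against 158 in CM. Cdkn1c, the inhibitor p57, was lower, at 527 RPKM in CP against 167 in CM, after 94.6 RPKM in MES. Cdkn1b, the inhibitor p27, was at 18.6 RPKM in CP against 32.3 in CM, under 2-fold. Pocket proteins differed in opposite directions. Rbl2, the p130 of resting cells, stood at 0.857 RPKM in CP against 6.496 in CM. Rbl1, the p107 of cycling cells, was at 4.201 RPKM in CP against 1.45 in CM. Gadd45b, a stress-induced growth arrest gene, stood at 3.73 RPKM in CP against 59.7 in CM. Tob1, an antiproliferative protein, was at 7.83 RPKM in CP against 39.3 in CM. Trp53, which induces p21, stood at 22.4 RPKM in CP against 10.7 in CM.

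**Figure D5:**
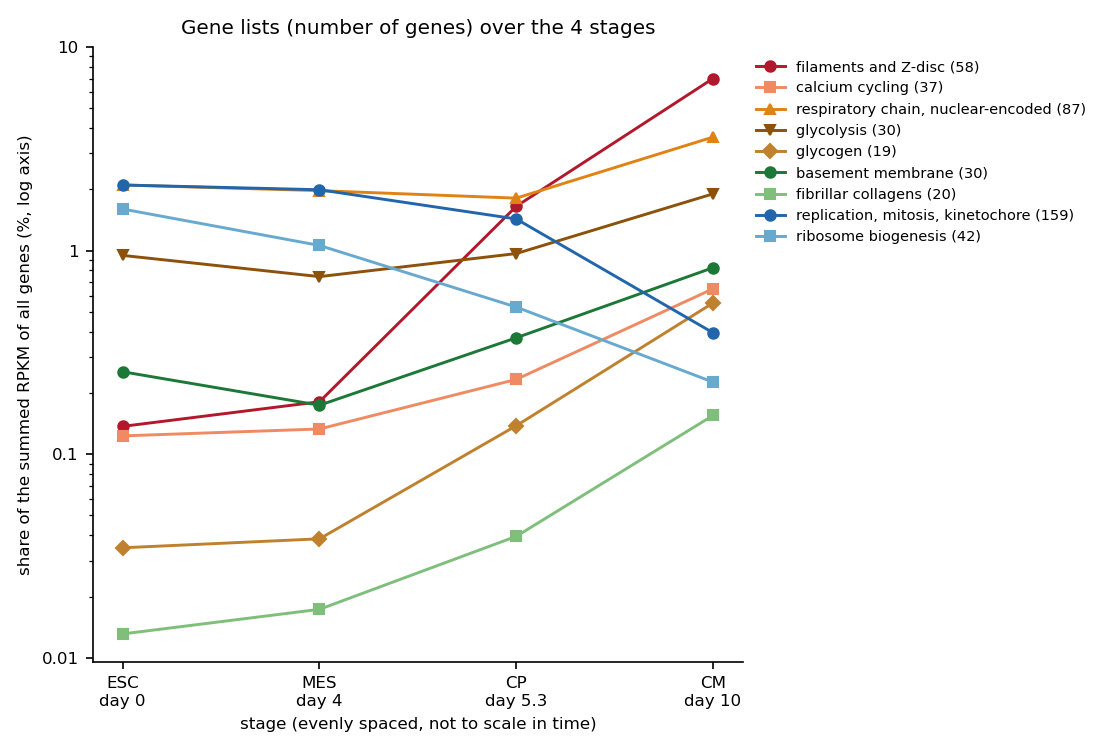
Share of 9 gene groups in the summed RPKM of all genes at the 4 stages (percent, log axis; stages evenly spaced). Filament and Z-disc genes go from 1.65% in CP to 7% in CM, replication, mitosis and kinetochore genes from 1.43% to 0.395%, and the respiratory chain from 1.81% to 3.61%.

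Transcription factors of heart development were more often lower than higher. Of 45 measured factors 23 were lower and 9 higher. The lower ones included Irx1, Irx3 and Irx5 of the Iroquois family. Irx1 was at 67.9 RPKM in CP against 2.88 in CM. Irx3 stood at 53.6 RPKM in CP against 2.73 in CM. Irx5 was at 22.9 RPKM in CP against 0.342 in CM. Hand2, a regulator of the right ventricle, stood at 199 RPKM in CP against 39.5 in CM. Gata4 and Gata6, early cardiac activators, was at 53.2 RPKM in CP against 59.3 in CM and at 99.7 RPKM in CP against 75.9 in CM, under 2-fold. Nkx2-5, which maintains cardiac identity, was higher, at 70.1 RPKM in CP against 178 in CM. Bhlhe40, a repressor with a daily rhythm, was the furthest higher, at 2.08 RPKM in CP against 58.99 in CM. Splicing regulators also differed, with 9 of 21 lower and 2 higher. Mbnl2, which favours adult splice forms in muscle, stood at 9.68 RPKM in CP against 49.3 in CM. Ptbp1, which represses them, was at 144 RPKM in CP against 54.7 in CM.

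Immediate-early and stress genes were higher in 13 of 29 cases and lower in 1. Fos stood at 50.3 RPKM in CP against 176 in CM. Egr1 was at 56.3 RPKM in CP against 192 in CM. Ier3, an early survival gene, stood at 4.65 RPKM in CP against 51.1 in CM.

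At the extremes, 60 genes (0.443%) were under 1 RPKM in CP and at 10 RPKM or more in CM, and 29 (0.214%) did the reverse. Beyond the contractile and channel genes, those switched on included Fgf11 at 0.903 RPKM in CP against 37.2 in CM. Grhl1, a grainyhead transcription factor, was at 0.169 RPKM in CP against 31.2 in CM. Car12, a membrane carbonic anhydrase, stood at 0.585 RPKM in CP against 30.3 in CM. Coro6, a coronin of muscle, was at 0.593 RPKM in CP against 65.8 in CM. S1pr3, a sphingosine phosphate receptor, stood at 0.548 RPKM in CP against 17.4 in CM. Those switched off included Dnmt3b, the methyltransferase of early embryo cells, at 24.6 RPKM in CP against 0.807 in CM. Hsd11b2, which inactivates glucocorticoids, was at 24.8 RPKM in CP against 0.3000 in CM. Mme, the peptidase neprilysin, stood at 18.8 RPKM in CP against 0.629 in CM. Tlx1, a homeobox factor, was at 15.8 RPKM in CP against 0.317 in CM. Msx1, another homeobox factor, stood at 15.4 RPKM in CP against 0.837 in CM. Gata2, a factor of blood and endothelial precursors, was at 14.6 RPKM in CP against 0.913 in CM. Among genes that were measurable in both stages, Dkk3, a secreted protein of the Dickkopf family, stood at 1.505 RPKM in CP against 107 in CM. Ndrg2, a differentiation-associated protein, was at 9.23 RPKM in CP against 254 in CM.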

How the data were processed

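The deposited table gives RPKM per gene and stage, per the file headers, with 1 column for each of the 4 stages. Reads were aligned with Novoalign 2.07.00 to the mm9 genome (submitters' processing notes). How reads were counted, on which annotation, and how the pair of libraries of a stage became a single column was not given in the sources used here. Each gene has a value above 1 RPKM at some stage, and genes without one were not analysed here. Of 225 genes in the maturation lists 198 were measured, and of 217 in the matrix lists 176. A gene that is low elsewhere is measured only through the stage where it is high. In lists with low CP levels this limit therefore favours counts of higher genes.

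Differences were computed with Python 3.11.15, pandas and numpy as log2 of RPKM with a pseudocount of 1, and genes at least 2-fold apart were counted. With 1 value per stage the planned description was used, without a test. Lists held 1566 entries in 55 lists, and 1380 different genes were measured. The members and lists were chosen with earlier results of these data known. Sequencing depth was recovered from the steps between low RPKM values and exon lengths of GENCODE M21, whose build differs, and 25.1% of 4955 genes lay within 0.1% of it; floors cover counting error only. Shared sequence is the percentage of 32-base words of the longest M21 transcript that occur in other genes. Levels of Nppa, Pln, Cpt1b, Hspb1, Fstl3, Bnip3, Eno1, Tagln and other genes above 50% are uncertain, and overlapping genes cannot be told apart, as use of strand is not stated. The calculation was tested on simulated data.

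Named genes are all members of the isoform pairs. Of each list they are up to 6 with the largest differences, up to 4 of at least 2-fold and up to 3 under 2-fold with the highest mean levels, and members against the list's direction where there were 5 or fewer. Over all genes they are the 20 largest differences in each direction and the 20 highest genes switched on or off. Clone names and replication-dependent histones were left out. Adrb1, Cacna1c, Casq2, Cdh2, Chrm2, Gja1, Lama2, Lama3, Lama4, Lama5, Lum, Msln, Myh11, Ryr2, Slc8a1 and Tfam were named after their values were seen. Some genes are not reported here. Alternatives were other pseudocounts, a 4-fold limit, a minimum mean level, centring, quantile normalization, scaling to a common sum, and other switch limits.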

Additional observations from a re-analysis of the deposited data

How the results depend on the processing

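Among the 607 genes named by the rule, no gene at least 2-fold apart changed sign under the alternatives run. Other pseudocounts and a minimum mean level cannot change a sign. Centring, which removed a median log2 ratio of -0.16, and the common sum shift values too little to reverse a 2-fold difference. Only quantile normalization could have done so, and the 4-fold limit was not part of this check. Genes named only after their values were seen were not in this check. The fold of 120 of the 607 genes moved by 1.5 times or more with a pseudocount of 0.1. It moved as far for 42 with 0.5, for 106 with a common sum and for 5 with quantile normalization. List medians moved as far in 7 lists with a pseudocount of 0.1, 5 with a common sum and 6 with a minimum mean of 3 RPKM. Counts of higher or lower genes in a list moved beyond 1.5 times in 77 cases at 4-fold, where 39 did not, and in 5 to 13 cases under each other alternative. The number of genes at least 2-fold lower in CM was 1729 and became 2686 with a pseudocount of 0.1 and 2799 when columns were brought to a common sum of 1000000. The first gives low genes more weight by construction, and the second does so and also rescales CM against CP. A minimum of 4-fold left 437 genes higher and 320 lower. The 29 genes switched off became 69 with the common sum, and 44 with limits of 0.5 and 5 RPKM. The median log2 differences of the maturation, metabolism, matrix and cell cycle lists (1.53, 0.55, 0.99 and -1.44) moved by less than 1.5-fold in all alternatives run. Centring moved the median of all genes from -0.15 to -0.04 and turned 1524 higher and 1729 lower genes into 1802 and 1404, and the common sum moved it to -0.29, so values near the 2-fold limits depend on scaling; 1027 genes lie within 0.1 of a limit. No paired analysis was possible because the columns carry no replicate, and for the same reason no library could be left out. At these depths a gene of 2 kb under 0.0232 RPKM in CP cannot be told from 3 reads.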

Other observations

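The lists described here were written after the values were seen, and part of their genes also stand in the lists above. Genes known to be induced by low oxygen were higher in 45 of 59 cases and lower in 1, with a median log2 difference of 1.75, and their summed RPKM went from 0.929% to 2.47% of all genes. Of these genes 37 also stand in an earlier list, 27 of them in the metabolism lists, 22 stand in no other list, and 17 of those 22 were higher. All 59 listed genes were measured and were chosen with the values known, so neither count is independent of them. Vegfa, the vessel growth factor, stood at 26.4 RPKM in CP against 161 in CM. Egln3, a prolyl hydroxylase that senses oxygen, was at 12.5 RPKM in CP against 89.7 in CM. Ndufa4l2, a mitochondrial protein made at low oxygen, stood at 11.7 RPKM in CP against 232 in CM. Ndrg1 was at 3.86 RPKM in CP against 62.4 in CM. Car9, a carbonic anhydrase, stood at 2.58 RPKM in CP against 28.97 in CM. Hif1a, the factor that induces such genes, was at 24.5 RPKM in CP against 53.1 in CM. Epas1, a related factor, stood at 3.31 RPKM in CP against 11.3 in CM. Cited2 and Ddit4, which also respond to low oxygen, were under 2-fold. Cited2 was at 126 RPKM in CP against 106 in CM. Ddit4 stood at 90.8 RPKM in CP against 112 in CM. Oxygen in the cultures was not measured, and its part in these values was not tested.

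Of 16 measured genes that handle retinoic acid 6 were lower and 2 higher. Crabp2, a binding protein, was lower, at 49.2 RPKM in CP against 1.88 in CM. Cyp26a1, which degrades retinoic acid, was at 24.3 RPKM in CP against 0.0589 in CM. Rarb, a receptor that shares over 50% of its words with other genes, stood at 11.1 RPKM in CP against 4.65 in CM. The higher members were Rbp4, a retinol carrier, and the receptor Rxrg. Rbp4 was at 0.788 RPKM in CP against 3.99 in CM. Rxrg stood at 0.296 RPKM in CP against 1.77 in CM. The receptor Rara was at 13.4 RPKM in CP against 20.7 in CM, under 2-fold. Antagonists and feedback genes of WNT signalling counted 4 of 14 lower and 1 higher. Their summed RPKM was 161.4 in CP and 161.6 in CM. The higher member was Dkk3, with a log2 difference of 5.43. Dkk1, a secreted antagonist, stood at 5.97 RPKM in CP against 0.6795 in CM. Frzb was at 8.68 RPKM in CP against 2.94 in CM. Axin2, a feedback gene, stood at 3.66 RPKM in CP against 2.77 in CM, under 2-fold.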
